A study of Mus musculus with 10 samples.

Results

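The 10 genes described here encode the proteins that attach NEDD8 to cullins, and they were measured in the gastrocnemius of smoke-exposed mice with and without the aryl hydrocarbon receptor (AHR) in muscle. They are *Nedd8* itself, the activating enzyme genes *Uba3* and *Nae1*, the conjugating enzyme genes *Ube2m* and *Ube2f*, and the 5 DCN1-like genes *Dcun1d1* to *Dcun1d5*. *Dcun1d5* was selected on these same counts because its values did not overlap between the genotypes, and the other 9 genes were added for their function, with earlier results of these data known. The difference in *Dcun1d5* between genotypes is therefore given as a description, with no test. All 10 genes are among the 49315 gene identifiers of the count table, and all 10 passed the filter on low counts that left 14714 genes.

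RNA was sequenced from 10 male mice on a C57BL6J background, 5 AHR-floxed mice (AHRfl/fl) and 5 muscle-specific AHR knockout mice (AHRmKO), and no group breathed room air only. Every mouse had received 16 weeks of chronic cigarette smoke. Muscle was taken 72 h after the last exposure by the series' own description and by a figure legend of the study. The study's Results text gives a range of times that ends there. AHRmKO mice carry the floxed *Ahr* alleles together with a MerCreMer recombinase under the human skeletal actin (ACTA1) promoter, which acts in skeletal myofibres after tamoxifen. The AHRfl/fl mice were littermates with the floxed alleles and no Cre, so that the loss of AHR and the presence of the recombinase cannot be told apart. Smoke began after tamoxifen, which the methods describe for inducing the knockout. The study times the start of smoke from tamoxifen for both genotypes, without saying separately that the AHRfl/fl mice were injected. Cells in which that promoter is silent keep their *Ahr* alleles.

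NEDD8 is a small protein related to ubiquitin. It is activated by the E1 heterodimer of NAE1 and UBA3, passed to an E2 enzyme, UBE2M or UBE2F, and joined to a lysine of a cullin with the help of a RING partner, RBX1 or RNF7, and a DCN1-like protein, which binds both the E2 and the cullin and speeds the transfer. A cullin that carries NEDD8 forms an active ubiquitin ligase, and ligases of this family set the turnover of many regulatory and sarcomeric proteins in muscle.

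Total counts were between 30393035 and 36500548 per mouse in AHRfl/fl and between 35038167 and 37954388 in AHRmKO. Each neddylation gene had at least 277 counts in every mouse, far above the floor of 3 counts. Reads of *Esr1*, which the MerCreMer transgene contains in part, separated the genotypes (17.1 ± 1.14 CPM in AHRfl/fl and 371 ± 173 CPM in AHRmKO, SD, n = 5 each). *Ahr* was 2.02 ± 0.681 CPM (SD, n = 5) in AHRfl/fl and 1.58 ± 0.443 CPM in AHRmKO, and counts over the whole gene do not check a deletion of part of it. The libraries also differed in ways that cut across the genotypes. *Xist* had 44 to 75 counts in 3 AHRfl/fl and 2 AHRmKO libraries and 0 to 3 in the others, although *Ddx3y*, on the Y chromosome, had 1852 counts or more in every library. The summed level of 5 slow-fibre markers ranged from 13.8 to 1119 CPM in AHRfl/fl and from 68.0 to 1312 CPM in AHRmKO. Myofibre markers summed to between 107585 and 154831 CPM in all mice. None of the 27 markers of 9 cell and fibre types was called or lay apart between the genotypes. In bulk RNA, fewer cells of a type and less RNA per cell cannot be told apart.

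*Dcun1d5* was lower in AHRmKO muscle. The gene lies on chromosome 9 of GRCm38 (chr9:7184520-7208205, plus strand, ENSMUSG00000032002) and encodes a DCN1-like protein found largely in the nucleus. Normalised to the library (CPM), its level was 63.7, 58.3, 56.2, 55.0 and 57.6 in AHRfl/fl mice 11, 12, 13, 15 and 33. It was 32.8, 42.8, 42.1, 40.0 and 48.2 CPM in AHRmKO mice 8, 9, 19, 22 and 34. The highest AHRmKO mouse lay below the lowest AHRfl/fl mouse, so that in 25 of 25 pairs of mice the AHRmKO mouse was lower, and mouse 8 stood lowest of all. The means were 58.2 ± 3.36 CPM (SD, n = 5) and 41.2 ± 5.56 CPM (SD, n = 5), a difference of -0.50 on the log2 scale, or -29.2%. These values rest on 1250 to 2242 reads per mouse. Of all genes tested, 0.714% lay entirely lower in AHRmKO and 1.40% lay apart in either direction, and since the gene was selected on this property nothing is read from it. Of the other 9 neddylation genes, *Ube2f* came nearest to lying apart in the same direction, with 23 of 25 pairs lower in AHRmKO.

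**Figure D1:**
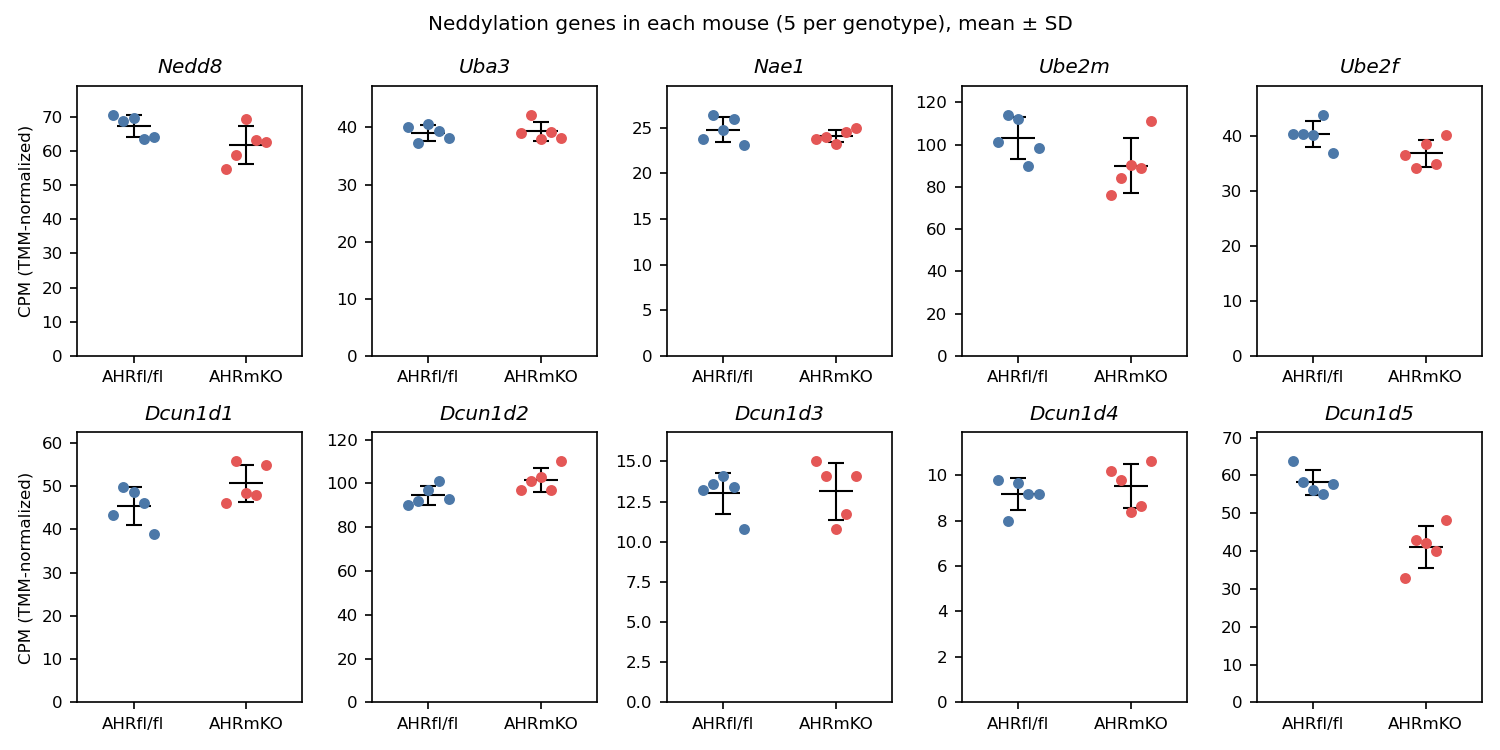
CPM (counts scaled to the library after TMM normalization, linear axis from 0) of each neddylation gene in every mouse, blue for AHRfl/fl and red for AHRmKO, with the mean and SD of 5 mice as black bars. *Dcun1d5* is the only one of the 10 genes whose groups do not overlap, at 55.0 CPM or more in AHRfl/fl and 48.2 CPM or less in AHRmKO.

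Because AHR bound to its partner ARNT recognises xenobiotic response elements, the 250 bases before each start site were read for the core of that element, GCGTG, on both strands. RefSeq gave such a window on GRCm38.p6 for all 10 genes, and 5 of them (*Dcun1d1*, *Dcun1d2*, *Dcun1d5*, *Nedd8* and *Nae1*) held the core once. Over all 32851 RefSeq windows of the same length, 28.2% held it. A match of 5 letters is a description and not a binding site. The windows of *Dcun1d5* and of *Dcun1d2*, the DCN1-like genes with the highest levels and with opposite signs of the genotype difference, are printed 5′ to 3′ on the strand of the gene with the match in capitals.
Dcun1d5, chr9:7184255-7184504, plus strand: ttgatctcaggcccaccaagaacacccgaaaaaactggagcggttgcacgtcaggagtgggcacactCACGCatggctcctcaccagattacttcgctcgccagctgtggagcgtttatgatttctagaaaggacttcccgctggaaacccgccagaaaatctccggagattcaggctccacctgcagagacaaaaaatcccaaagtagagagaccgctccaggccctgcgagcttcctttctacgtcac
Dcun1d2, chr8:13288127-13288376, minus strand: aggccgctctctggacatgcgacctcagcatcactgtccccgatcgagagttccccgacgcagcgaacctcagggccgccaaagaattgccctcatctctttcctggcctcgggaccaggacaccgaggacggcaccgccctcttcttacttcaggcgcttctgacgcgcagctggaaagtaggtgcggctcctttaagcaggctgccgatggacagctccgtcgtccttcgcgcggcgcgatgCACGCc
The match began at position -183 from the start site in *Dcun1d5* and at -6 in *Dcun1d2*, and in both it lay on the strand opposite to the gene.

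The other 4 DCN1-like genes had slightly higher means in AHRmKO, and none passed edgeR's test across all genes (adjusted p under 0.05). *Dcun1d2* (chr8:13255963-13288131, minus strand) encodes a close relative of DCUN1D1. Its level was 89.9, 92.1, 96.9, 101 and 92.9 CPM in AHRfl/fl mice 11, 12, 13, 15 and 33, and 97.0, 101, 103, 97.0 and 110 CPM in AHRmKO mice 8, 9, 19, 22 and 34. Most AHRmKO mice lay above most AHRfl/fl mice, with overlap between 97.0 and 101 CPM. The log2 difference was 0.10 (SE 0.0590), with a 95% interval of -0.03 to 0.23. It did not pass the threshold across all genes by edgeR's quasi-likelihood test (adjusted p = 0.811), and the two-sided exact permutation test of this gene alone, 1 of 9 such tests, gave p = 0.0317.

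*Dcun1d1* (chr3:35892105-35937445, minus strand), which encodes the DCN1-like protein also known as SCCRO, was 43.4, 49.8, 48.7, 46.2 and 39.0 CPM in the AHRfl/fl mice and 46.1, 55.7, 48.5, 48.0 and 54.8 CPM in the AHRmKO mice, in the same order. Mice 9 and 34 of AHRmKO were highest and mice 11 and 33 of AHRfl/fl lowest, and the other values overlapped. The log2 difference of 0.16 (SE 0.0802, 95% interval -0.02 to 0.33) did not pass edgeR's test (adjusted p = 0.785). An exact permutation test gave p = 0.127.

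*Dcun1d3* (chr7:119852796-119896298, minus strand) encodes a DCN1-like protein held at membranes by a lipid anchor. It ranged from 10.8 to 14.1 CPM in AHRfl/fl and was 13.1 ± 1.79 CPM (SD, n = 5) in AHRmKO, where the lowest mouse also stood at 10.8 CPM. Its log2 difference was 0.01 (95% interval -0.21 to 0.24, edgeR adjusted p = 0.993). *Dcun1d4* (chr5:73481000-73560794, plus strand) ranged from 7.99 to 9.78 CPM and from 8.36 to 10.6 CPM, with a log2 difference of 0.06 (95% interval -0.15 to 0.26, edgeR adjusted p = 0.949). The values of both genes were mixed between the genotypes.

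The make-up of the DCN1-like transcripts followed *Dcun1d5*. Per length of exon (FPKM), *Dcun1d5* gave 41.0 ± 2.27% (SD, n = 5) of the summed DCN1-like level in AHRfl/fl and 31.3 ± 2.21% in AHRmKO, with ranges of 38.4 to 44.1% and 27.4 to 33.1%. The share of *Dcun1d2* was 41.1 ± 1.93% in AHRfl/fl and 47.8 ± 1.54% in AHRmKO, and that of *Dcun1d1* was 10.9 ± 0.942% and 13.2 ± 0.543%. *Dcun1d3* and *Dcun1d4* each gave between 2.99 and 4.92% in every mouse. The shares depended on the length used. By the longest transcript, the mean share of *Dcun1d5* was 34.6% in AHRfl/fl and 25.7% in AHRmKO, and that of *Dcun1d2* was 46.0% and 52.1%. The sum of the 5 genes was 46.1 ± 0.904 FPKM in AHRfl/fl and 42.7 ± 3.21 FPKM in AHRmKO, and these ranges overlapped. Shares of one total are bound to each other, so a smaller share of 1 gene raises the others. These shares use the same *Dcun1d5* values that selected the gene and carry no test.

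**Figure D2:**
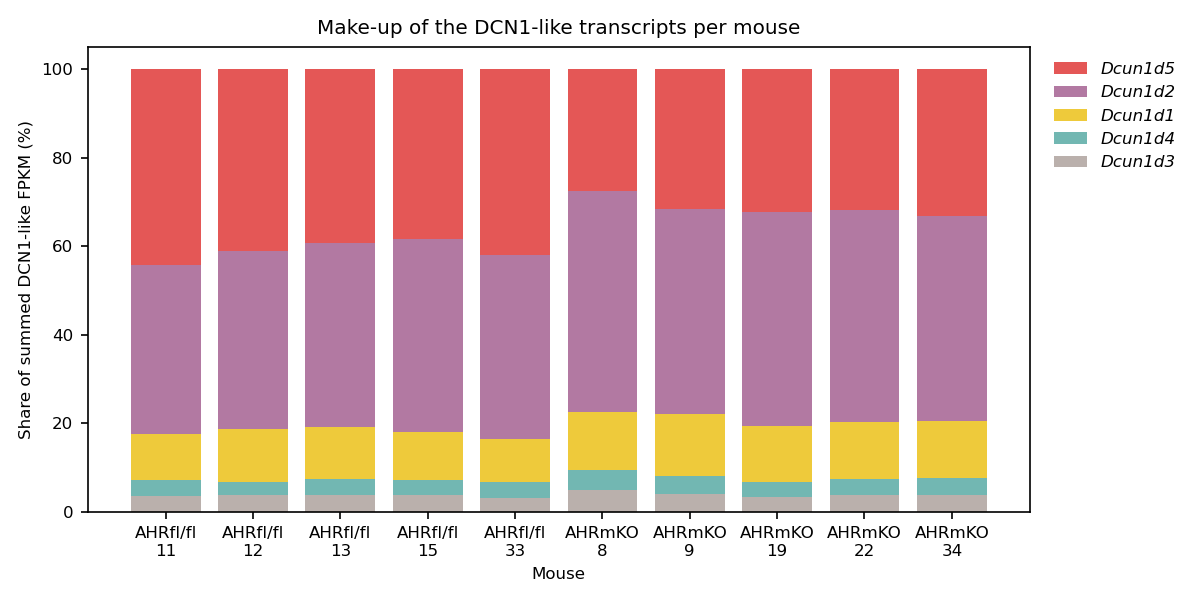
Share of each DCN1-like gene in the summed FPKM (by exon length) of the 5 genes (percent, stacked to 100), 1 bar per mouse, AHRfl/fl on the left and AHRmKO on the right. The *Dcun1d5* segment takes 38.4 to 44.1% in AHRfl/fl and 27.4 to 33.1% in AHRmKO.

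*Nedd8*, the modifier itself (chr14:55662263-55672124, minus strand), was 70.5, 68.6, 69.5, 63.6 and 64.0 CPM in AHRfl/fl mice 11, 12, 13, 15 and 33 and 54.7, 58.7, 69.3, 63.3 and 62.5 CPM in AHRmKO mice 8, 9, 19, 22 and 34. Apart from mouse 19, every AHRmKO mouse lay below the lowest AHRfl/fl mouse. The log2 difference was -0.12 (SE 0.0689, 95% interval -0.27 to 0.02), which did not pass edgeR's test (adjusted p = 0.798; exact permutation p = 0.0556). Of the exon length of *Nedd8*, 14.6% is shared with *Gmpr2* on the opposite strand, and since the sources make strand-specific counting depend on the library type and do not name that type, reads from there cannot be assigned with certainty. For *Dcun1d1* the overlap, with the antisense gene *Gm15952*, was 1.36% of its exon length, and for *Dcun1d3*, with *Lyrm1*, it was 0.472%.

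The genes of the activating enzyme were at even levels. *Uba3* (chr6:97183670-97205647, minus strand), the catalytic subunit, was 39.1 ± 1.44 CPM (SD, n = 5) in AHRfl/fl and 39.3 ± 1.69 CPM in AHRmKO, with a log2 difference of 0.01 (95% interval -0.11 to 0.13, edgeR adjusted p = 0.989). *Nae1* (chr8:104511028-104534637, minus strand), the regulatory subunit, was 24.8 ± 1.37 CPM and 24.1 ± 0.687 CPM, with a log2 difference of -0.04 (95% interval -0.17 to 0.09, edgeR adjusted p = 0.939). These intervals are narrower than that of *Ube2m*, as are the within-genotype coefficients of variation, which were 4.01% for *Uba3*, 4.41% for *Nae1* and 12.3% for *Ube2m*. Per exon length, the level of *Uba3* was 2.04 ± 0.147 times that of *Nae1* in AHRfl/fl and 2.10 ± 0.106 times in AHRmKO. By the length of the longest transcript, the mean ratios were 2.46 and 2.53.

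Both conjugating enzyme genes had lower means in AHRmKO, and for both the values of the genotypes overlapped. *Ube2m* (chr7:13035120-13038275, minus strand) encodes the E2 that works with RBX1. It was 101, 114, 112, 90.0 and 98.3 CPM in AHRfl/fl mice 11, 12, 13, 15 and 33, and 75.9, 84.2, 90.4, 88.7 and 111 CPM in AHRmKO mice 8, 9, 19, 22 and 34. Mouse 34 of AHRmKO lay among the highest AHRfl/fl mice, and mouse 15 of AHRfl/fl lay among the AHRmKO mice. The log2 difference was -0.19 (SE 0.0980, 95% interval -0.41 to 0.02, edgeR adjusted p = 0.778; exact permutation p = 0.0952).

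*Ube2f* (chr1:91250304-91290337, plus strand) encodes the E2 that serves CUL5 through RNF7. Its level was 40.5, 40.4, 40.3, 43.9 and 37.0 CPM in the AHRfl/fl mice and 36.6, 34.2, 38.6, 35.0 and 40.2 CPM in the AHRmKO mice, in the same order. Mouse 33 of AHRfl/fl fell within the AHRmKO range, and mice 19 and 34 of AHRmKO reached into the AHRfl/fl range. The log2 difference was -0.13 (SE 0.0659, 95% interval -0.27 to 0.01), with an adjusted p of 0.778 by edgeR and an exact permutation p of 0.0476 for this gene alone. Per exon length, *Ube2m* stood 9.60 ± 1.17 times above *Ube2f* in AHRfl/fl and 9.14 ± 0.950 times in AHRmKO.

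Of the 9 neddylation genes other than *Dcun1d5*, 0 were called by edgeR (adjusted p under 0.05), where 0.00680% of all genes tested, *Esr1* alone, were called. At an unadjusted p under 0.05 edgeR also gave 0 of 9, against 6.61% of all genes, and DESeq2 gave 0 of 9 at both thresholds. The exact permutation test, likewise unadjusted, put *Dcun1d2* (p = 0.0317) and *Ube2f* (p = 0.0476) under 0.05. The log2 differences of the 9 genes ran from -0.19 to 0.16, with 4 lower and 5 higher in AHRmKO. The median over these 9 genes was 0.010, and -0.015 with *Dcun1d5* included, beside 0.006 over all genes tested, of which 48.5% were lower in AHRmKO.

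Levels per exon length were ordered by their mean over the 10 mice, with the genotypes pooled. *Nedd8* was highest at 51.1 ± 4.06 FPKM (SD, n = 10), followed by *Ube2m* at 41.0 ± 5.46, *Dcun1d2* at 19.7 ± 1.16, *Dcun1d5* at 16.1 ± 3.23 and *Uba3* at 6.16 ± 0.234 FPKM. *Dcun1d1* followed at 5.32 ± 0.547, *Ube2f* at 4.37 ± 0.334, *Nae1* at 2.98 ± 0.132, *Dcun1d3* at 1.67 ± 0.186 and *Dcun1d4* at 1.61 ± 0.143 FPKM. Neighbours in this order were compared within mice by two-sided exact sign-flip permutation tests adjusted over the 9 pairs. The 2 pairs that hold *Dcun1d5* entered that adjustment, and their tests are not used, since that gene was selected on these counts. *Dcun1d3* and *Dcun1d4* did not differ beyond their spread (log2 difference 0.05, adjusted p = 0.281). The adjusted p was 0.00502 for *Uba3* above *Dcun1d1*, seen in 9 of 10 mice, and 0.00293 for each of the 5 other pairs without *Dcun1d5*, seen in 10 of 10 mice.

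The distance of *Dcun1d5* from *Dcun1d2* is given for each genotype as a description. The level of *Dcun1d2* exceeded that of *Dcun1d5* by 0.01 ± 0.14 (log2, SD, n = 5) in AHRfl/fl, where it was higher in 2 of 5 mice, and by 0.61 ± 0.15 in AHRmKO, where it was higher in 5 of 5. With the length of the longest transcript in place of all exons, the excess was 0.41 ± 0.14 and 1.02 ± 0.15. The log2 distance from *Dcun1d5* down to *Uba3* over all mice was 1.36 by exon length and 0.40 by the longest transcript. Other distances moved with the length as well, from 0.22 to 0.67 for *Uba3* over *Dcun1d1*, from 0.28 to 0.49 for *Dcun1d1* over *Ube2f* and from 0.55 to 0.15 for *Ube2f* over *Nae1*, and that of *Nae1* over *Dcun1d3* widened from 0.84, so the sizes of these steps rest on the length used.

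**Figure D3:**
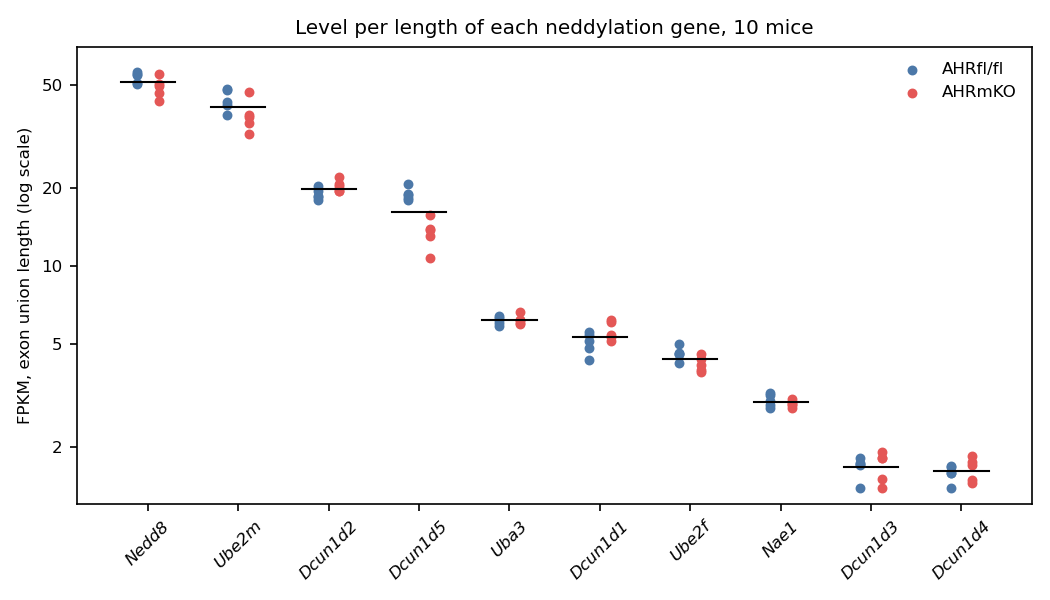
FPKM by exon length of the 10 neddylation genes on a log axis, ordered by level, 1 point per mouse in blue (AHRfl/fl) or red (AHRmKO) and the mean of 10 mice as a line. *Nedd8* and *Ube2m* lie at 51.1 and 41.0 FPKM on average and *Dcun1d4* at 1.61 FPKM, and the genotypes lie apart only for *Dcun1d5*.

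Across the 10 mice, none of the 36 pairs of neddylation genes without *Dcun1d5* was correlated after adjustment. By Pearson's r the strongest was *Nedd8* with *Ube2m*, with Pearson's r = 0.72 (permutation p = 0.0192, adjusted 0.575) and Spearman's rho = 0.67 (permutation p = 0.0393, adjusted 0.538). It was r = 0.53 without the 2 mice farthest from the median of *Nedd8*, 0.74 within AHRfl/fl and 0.54 within AHRmKO. By Spearman's rho the strongest was *Dcun1d3* with *Dcun1d4* (rho = 0.75, permutation p = 0.0169, adjusted 0.538), with Pearson's r = 0.60 (permutation p = 0.0699, adjusted 0.575). That pair had r = 0.59 without the 2 mice farthest from the median of *Dcun1d3*, 0.00 within AHRfl/fl and 0.94 within AHRmKO. After the mean of each genotype was removed, the genes whose log2 CPM followed *Dcun1d5* most closely over the 10 mice were *Lrrc42* (r = 0.95), *Fbxw17* (0.94), *Lsm2* (0.93), *Paics* (0.93) and *Itgam* (0.93), of 14713 genes. Their mean levels were 8.38, 3.55, 6.74, 107 and 0.786 CPM, in the same order. In AHRmKO, *Dcun1d5* ran from 32.8 CPM in mouse 8 to 48.2 CPM in mouse 34, and r was not computed without these mice. The points share library and normalization, and such r values arise when the best of many genes is taken, so they are given as a description. By the same measure, the other neddylation genes ranged from r = -0.17 for *Dcun1d3* to 0.71 for *Ube2m*, with *Nedd8* at 0.59 and *Uba3*, *Nae1* and *Dcun1d4* between -0.00 and 0.08.

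The machinery around the cullins was described with 51 further genes listed by function, likewise with earlier results known, and all of them were tested. By edgeR, 0 of 51 passed the adjusted threshold. At an unadjusted p under 0.05 there were 4, beside 6.61% of all genes tested, and 3 of them were higher and 1 was lower in AHRmKO. The groups did not overlap for 2 of 51, *Senp8* and *Asb15*, both higher in AHRmKO, beside 1.40% of all genes in either direction. In all, 23 had a lower and 28 a higher mean, with a median log2 difference of 0.01.

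The 8 cullins, the scaffolds that receive NEDD8, had 1 lower and 7 higher means and a median log2 difference of 0.03. *Cul3* had the highest level of them (50.5 FPKM, log2 difference 0.01, adjusted p = 0.994 by edgeR). *Cul9* differed most, at 21.8 ± 1.48 CPM (SD, n = 5) in AHRfl/fl and 24.5 ± 0.548 CPM in AHRmKO, a log2 difference of 0.17 (adjusted p = 0.665 by edgeR). The RING partners *Rbx1* and *Rnf7* stood at 21.6 and 65.3 FPKM, with log2 differences of -0.04 and -0.06.

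Among 13 genes that remove or process NEDD8, mostly subunits of the COP9 signalosome, 5 had a lower and 8 a higher mean. *Cops6* had the highest level (49.4 FPKM) and a log2 difference of 0.05. *Senp8*, which encodes a protease specific to NEDD8, was 4.68 to 5.75 CPM in AHRfl/fl and 5.84 to 7.08 CPM in AHRmKO. Its groups did not overlap, yet the log2 difference of 0.29 did not pass edgeR's test across all genes (adjusted p = 0.665). The 4 exchange factors and inhibitors had a median log2 difference of 0.08. *Cand1*, which encodes a factor that exchanges substrate receptors, differed most among them (0.20, adjusted p = 0.792 by edgeR), and *Cand2*, its relative enriched in muscle, had the highest level (21.9 FPKM).

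The 4 adaptors had a median log2 difference of -0.03, with *Elob* highest in level (96.2 FPKM) and -0.08 in difference. Of 5 ubiquitin enzymes that act with neddylated cullins, 4 had a lower mean, and the smallest of these differences was -0.0815%. *Cdc34*, an E2 of cullin ligases, had both the highest level (171 FPKM) and the largest difference (log2 -0.17, adjusted p = 0.829 by edgeR).

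Of 15 substrate receptors, 8 had a lower and 7 a higher mean, with a median log2 difference of -0.03. *Asb15*, a muscle-expressed receptor of CUL5 ligases, was 63.7 to 83.3 CPM in AHRfl/fl and 94.3 to 114 CPM in AHRmKO, with means of 74.3 ± 7.95 and 102 ± 8.57 CPM (SD, n = 5 each). Its groups did not overlap, and the log2 difference was 0.46 (SE 0.0835, 95% interval 0.28 to 0.64). By edgeR the adjusted p was 0.432, while the DESeq2 Wald test gave 0.00224 and edgeR without the filter on low counts gave 0.00446, so the call of *Asb15* depended on the test and the filter. *Klhl41*, a CUL3 receptor of the sarcomere, was the receptor with the highest level (309 FPKM) and had a log2 difference of -0.20 (adjusted p = 0.734 by edgeR). *Vhl*, the receptor for hypoxia-inducible factors, had the lowest log2 difference of the list, -0.30 (adjusted p = 0.772 by edgeR).

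**Figure D4:**
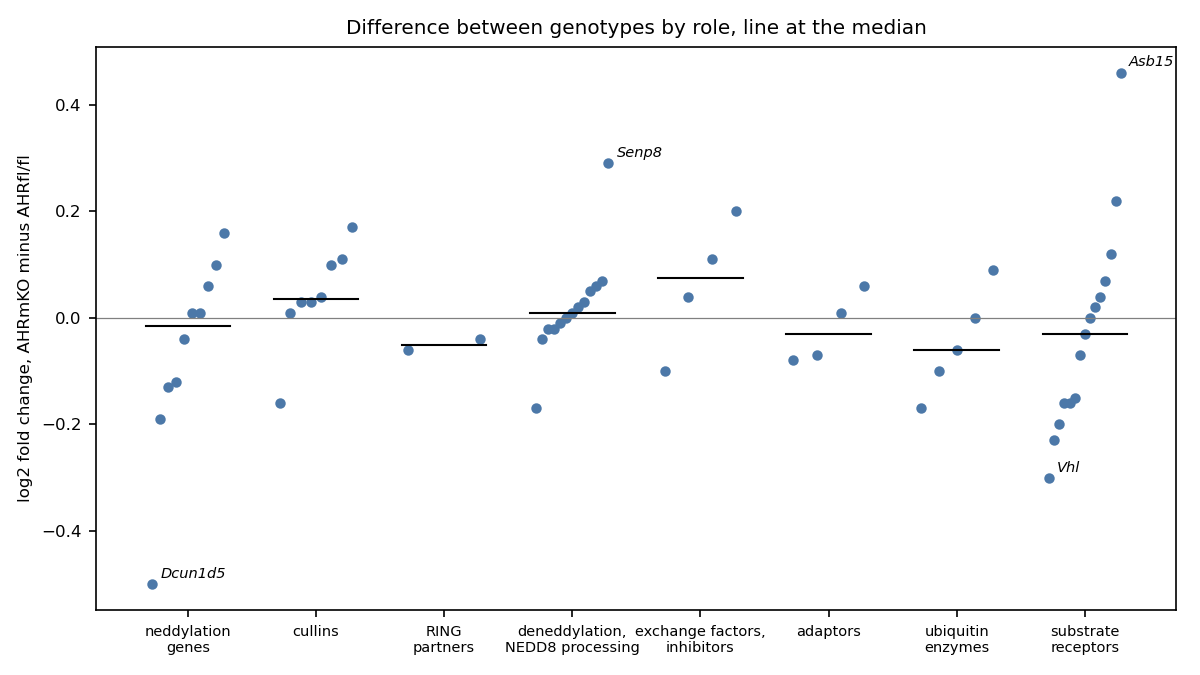
Log2 fold change, AHRmKO minus AHRfl/fl, of the 10 neddylation genes and the 51 further genes, 1 point per gene grouped by role, with the median of each role as a line. *Dcun1d5* at -0.50 and *Asb15* at 0.46 lie at the ends, and the role medians lie between -0.06 and 0.08.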

How the data were processed

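RNA of the gastrocnemius was sequenced from paired poly(A) libraries. The authors trimmed reads with Trimmomatic 0.36, aligned them to GRCm38 with STAR 2.5.2b and counted reads per gene with featureCounts. The deposited values are raw counts per gene, 1 column per mouse, not normalized or pooled. The annotation release and the library's strandedness, on which strand-specific counting depended, are not given in the sources used here. Names, positions and exon lengths were taken from GENCODE M21, which holds 48970 of the 49315 identifiers, and start sites from RefSeq.

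Genotypes were compared with edgeR 4.0.16 in R 4.3.3 (filterByExpr at 10 counts, 15 in total, TMM, robust quasi-likelihood test, Benjamini-Hochberg adjustment over 14714 genes, no covariate). CPM include the TMM factors, a prior of 2 was added before taking log2 CPM, and FPKM are CPM per kilobase of exon. Single genes were also tested by exact permutation over the 252 assignments of 5 and 5 mice, for which the smallest p is 0.00794. Correlations used 100000 permutations (SciPy 1.17.1, Python 3.11.15). Intervals of 95% come from the fit. The scripts were tested on simulated data. DESeq2, which the study used in a version not given in the sources, was run here as version 1.42.0 as an alternative, with other scalings, filters and lengths, estimation without robust weights, a threshold of 0.1 and leaving out each mouse. After the data were seen, a slow-fibre score and *Xist* above 3 counts were added as covariates.

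All 10 neddylation genes were named. Of the 51 further genes, those called, not overlapping, or with the largest difference or level of their role were named, as were the 5 genes most like *Dcun1d5*. The members and lists were chosen with earlier results of these data known. Reads carry no molecular identifiers, so the floor of 3 counts covers counting error only.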

Additional observations from a re-analysis of the deposited data

Results flagged for a closer look

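In the 20 groups formed by the 10 neddylation genes and the 2 genotypes, 2 held a mouse far from the other 4 by Dixon's criterion (the gap to the nearest mouse over the range of the group, both in log2 CPM), where chance gives about 1 in 20 groups. *Dcun1d3* was low in AHRfl/fl mouse 33, at 10.8 CPM beside a mean of 13.6 CPM in the other 4, and the gap took 0.767 of the range. *Uba3* was high in AHRmKO mouse 9, at 42.2 CPM beside a mean of 38.6 CPM, and the gap took 0.720 of the range. Without the mouse concerned, the log2 difference of *Dcun1d3* was -0.045 and that of *Uba3* was -0.016, both on the other side of 0.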

How the results depend on the processing

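No paired analysis was possible because no animal number occurs in both genotypes. Over all alternatives the lowest adjusted p of the 9 neddylation genes other than *Dcun1d5* was 0.449, and none was called. Of 180 log2 differences of the 10 genes under the alternatives, 9 changed sign, all of *Uba3* or *Dcun1d3*, which lie near 0. *Uba3* was -0.008 with library size only and -0.016 to 0.026 with a mouse left out, *Dcun1d3* was -0.004 with a term for *Xist* counts and -0.045 to 0.081 with a mouse left out. With a mouse left out, *Dcun1d4* was 0.010 (without AHRfl/fl mouse 12) to 0.102 (without AHRmKO mouse 19) and *Nae1* was -0.063 to -0.016. The median of the 10 genes was -0.054 to 0.002 with a mouse left out. *Dcun1d5* was between -0.561 and -0.427, and since it was selected for lying apart on these counts, this range is a description and no sign of stability. The count called across all genes, 1, was 21 with DESeq2, 5 without the filter, 2 with the slow-fibre score and 1 to 6 with a mouse left out, the 6 without AHRmKO mouse 34. The count among the 51 further genes, 0, was 1 with DESeq2 and 1 without the filter, *Asb15* in both. For all of these, the cause was not tested. *Dcun1d3* over *Dcun1d4* was -0.06 by longest transcript. Adjustment over 14714 genes makes the threshold stricter than the unadjusted 95% intervals, and genes such as *Asb15* whose interval excludes 0 were not called.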
